A study of Homo sapiens with 6 samples.

Results

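The mitochondrial ribosomal protein genes of U937 cells, a human myeloid line, were followed through overexpression of BCL6B. Members were taken by symbol and biotype, as the protein-coding genes whose name is MRPL or MRPS followed by a digit, which gave 78 of the 58735 genes listed. Of these, 49 are named for the large subunit of the mitochondrial ribosome and 29 for the small subunit. The rule used no measured value. RNA was sequenced from 3 control libraries, whose genotype label is NC, and 3 libraries with the genotype label oeBCL6B. All 6 share the cell line, the batch label 1 and the treatment label "phenotyping experiment", and the labels class U937 as an acute promyelocytic leukaemia cell although it is usually described as a histiocytic lymphoma line. The study's design text names lentiviral BCL6B overexpression in leukaemia lines. The sources used here do not say which vector the controls carried, whether cells were a clone or a pool, or whether replicates came from separate cultures. Every p-value therefore rests on the spread among the 6 libraries alone, and that spread may be technical.

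The mitochondrial ribosome makes the few proteins encoded by mitochondrial DNA, all of them subunits of the respiratory chain and ATP synthase. Its ribosomal RNAs are transcribed inside the organelle, while its proteins are encoded in the nucleus, made in the cytosol and imported. Part of these proteins descend from bacterial ribosomal proteins, and the rest were added in the mitochondrial lineage. Names do not always give the subunit: MRPS30 and MRPS18A sit in the large subunit, and MRPS36 is now assigned to the 2-oxoglutarate dehydrogenase complex.

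Depth was even, at 16481014 to 17627289 reads in listed genes in controls and 17095256 to 18870186 with overexpression. BCL6B was without reads in the 3 controls, and each overexpression library held 1215 to 1712 (exact permutation p = 0.1, two-sided, the smallest that 3 against 3 libraries allow). All 8 myeloid markers were detected, at control means of 10.5 to 2025 FPKM (fragments per kilobase and per library size). Of these, 4 fell (LYZ, CD33, PTPRC and MPO) and 0 rose in limma, 2 had an unadjusted p under 0.05 upward, and limma voom on the recovered reads called 1 upward. PTPRC lost its call without control replicate 1 or 3 or overexpression replicate 2 or 3, and MPO without any 1 library (largest adjusted p 0.114 and 0.123). Of 19 markers of other cell types, those without a read in any library included CDH5, COL1A2, DCN, HBA1, HBB and KRT19. The summed level of the 19 was 48.2 to 54.2 FPKM in controls and 79.1 to 85.6 FPKM with overexpression, and 1 of them, the T cell receptor constant gene TRAC, rose. Mitochondrially encoded RNA made up 4.17% to 4.44% of the control reads, and 4.49% to 4.97% of the reads in overexpression libraries. The part of these shifts in the results below was not tested.

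In controls the tested members spanned 1.36 to 129 FPKM with a median of 22.6 FPKM, above the median of 4.54 FPKM over all tested genes. The lowest and highest were in the large subunit, and its median of 25.6 FPKM stood beside 18.8 FPKM for the small subunit. MRPL18, whose bacterial counterpart binds 5S ribosomal RNA, led at 129 ± 3.84 FPKM (SD, n = 3), followed by the small subunit genes MRPS35 at 116 ± 4.52 FPKM and MRPS34 at 86.9 ± 7.75 FPKM. MRPL18 and MRPS35 did not overlap in the control libraries, with 125 to 133 and 112 to 121 FPKM. The lowest tested members were MRPL53 at 1.36 ± 0.274, MRPL46 at 1.78 ± 0.278 and MRPL38 at 2.20 ± 0.111 FPKM. MRPL46 overlapped with both of its neighbours in this order, while MRPL53 and MRPL38 did not overlap with each other. A gene was tested if it had at least 0.5 FPKM in at least 3 of the 6 libraries. One member, MRPS24, counterpart of bacterial S3, failed this filter, with 5 to 16 reads per library and 0.102 to 0.306 FPKM. MRPS24 shares 23.2% of its exon bases, on the same strand, with URGCP-MRPS24, listed at 0 in controls and at 0.0418 FPKM with overexpression. How reads in shared bases were counted is not given, so its listed level may understate its expression.

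With BCL6B overexpression, 13 of the 77 tested members fell and 0 rose (limma on log2(FPKM + 1), Benjamini-Hochberg adjusted p under 0.05 over all 14662 tested genes). The share called was 16.9%, against 18.3% of all tested genes, so it was not above the background. The share called lower was 16.9% against 10.1%, and the share called higher was 0% against 8.18%. At an unadjusted p under 0.05, 29 members were lower and 2 higher, and limma voom on the recovered reads called 19 lower and 0 higher. The median log2 change of the members was -0.10, beside -0.02 for all tested genes, and the quartiles of the members were -0.18 and 0.01. Of the members, 72.7% had a change below 0, against 53.6% of all tested genes. Control and overexpression libraries did not overlap in the downward direction for 34 members, or 44.2%, where the background is 22.2%, and in the upward direction for 2, or 2.6%, where it is 17.8% (40% of all tested genes in either direction). Of the 10628 tested protein-coding genes, 20.7% were called, 11.8% lower and 8.99% higher. Their groups did not overlap downward for 25.1% and upward for 19.9%, and 53.7% had a change below 0. In these bulk libraries fewer cells of a type and less RNA per cell cannot be told apart. The called members fell to between 65.1% and 88.4% of their control means. The number called lower dropped to 4 without control replicate 1, to 5 without control replicate 2, to 5 without control replicate 3 and to 7 without overexpression replicate 2. In the same fits the number of all tested genes called dropped from 2687 to 1276, 1738, 1222 and 1333.

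**Figure D1:**
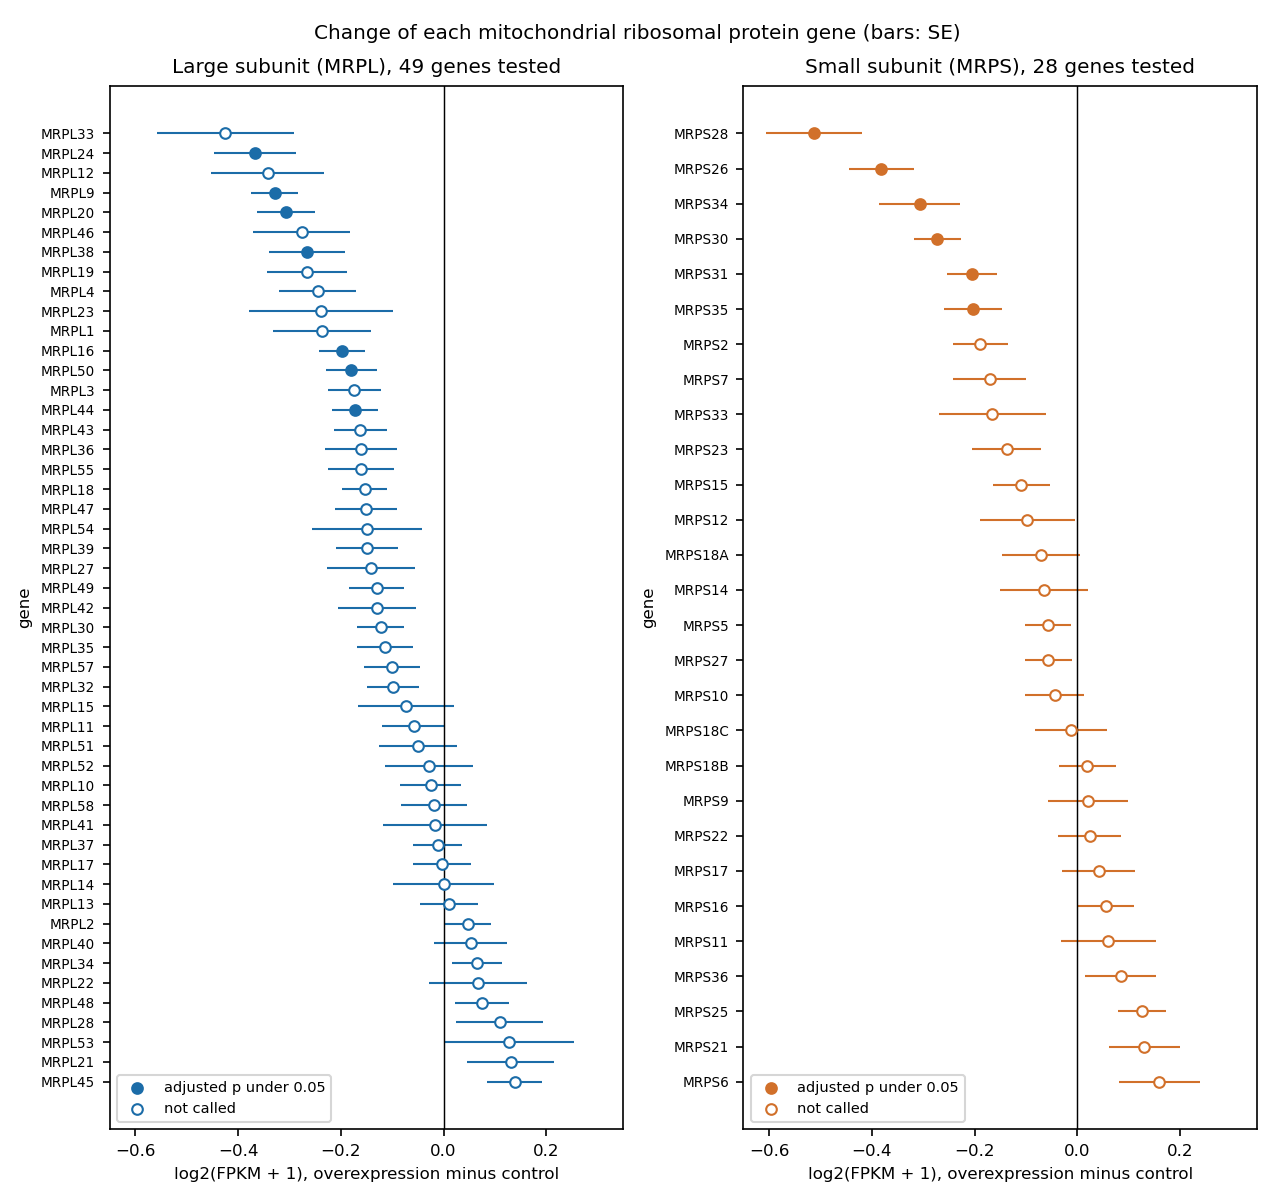
Difference in log2(FPKM + 1) between BCL6B overexpression and control for each tested member, large subunit names on the left and small subunit names on the right, sorted by size, with bars of 1 standard error and filled points for adjusted p under 0.05. The 13 filled points all lie below 0, and the changes run from -0.51 for MRPS28 to 0.16 for MRPS6.

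Summed over members the same shift was seen in each library. The members took 0.556%, 0.574% and 0.557% of reads in listed genes in control replicates 1, 2 and 3, and 0.525%, 0.525% and 0.519% in overexpression replicates 1, 2 and 3. Every overexpression library lay below every control. The mean log2(FPKM + 1) level of the members was 4.42, 4.52 and 4.44 in controls and 4.36, 4.39 and 4.33 with overexpression, again without overlap, while the mean over all tested genes was 2.71 in each control and 2.70 to 2.71 with overexpression. Control replicate 2 was the highest library, and overexpression replicate 3 the lowest. No p is given for these sums, since the members were chosen with results known.

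Large and small subunit genes were set side by side. Of 49 large subunit genes 7 fell, or 14.3%, and of 28 tested small subunit genes 6 fell, or 21.4%, with 0 rising in either. Among all tested genes 10.1% fell and 8.18% rose. At an unadjusted p under 0.05, 21 of 49 large and 8 of 28 small subunit genes were lower, and 1 of each was higher. Voom called 12 large and 7 small subunit genes lower and 0 higher. Among all 14662 tested genes, 2810 were lower and 2194 higher at an unadjusted p under 0.05, and voom called 2044 lower and 1670 higher. The median change was -0.13 for the large and -0.06 for the small subunit, the other order from the shares called by limma. Below 0 were 77.6% and 64.3% of their genes. The groups did not overlap downward for 23 large subunit genes (46.9%) and 11 small subunit genes (39.3%), beside 22.2% of all tested genes. Upward they did not overlap for 1 gene of each subunit (2.04% and 3.57%), beside 17.8%. The mean log2(FPKM + 1) level of the large subunit was 4.52, 4.62 and 4.54 in control replicates 1, 2 and 3 and 4.45, 4.49 and 4.41 with overexpression. For the small subunit it was 4.26, 4.34 and 4.27 in controls and 4.21, 4.22 and 4.19 with overexpression. In both subunits the groups did not overlap, and the difference between the subunits was not tested. With subunits assigned by structure, which moves MRPS30 and MRPS18A and leaves out MRPS36, 8 of 51 large and 5 of 25 tested small subunit genes fell. The median of the large subunit was -0.08 without control replicate 2. Without control replicates 1, 2 and 3 in turn, 2, 2 and 3 large and 2, 3 and 2 small subunit genes were called, and without overexpression replicate 2 the counts were 4 and 3.

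**Figure D2:**
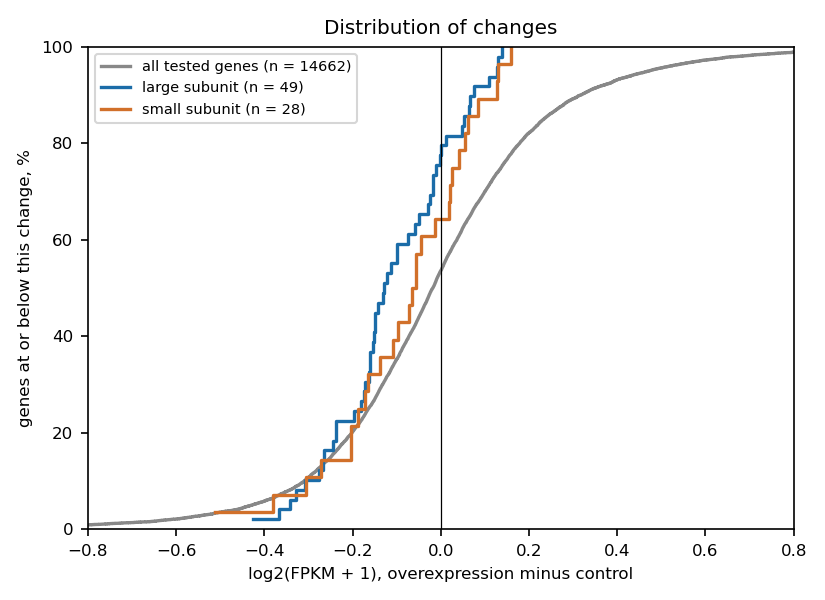
Cumulative share of genes, in %, at or below each change in log2(FPKM + 1), for all 14662 tested genes, the 49 large subunit genes and the 28 tested small subunit genes. The large and small subunit curves end at 0.14 and 0.16, short of the long upper tail of all tested genes, and the large subunit curve crosses 50% at -0.13, left of the small subunit curve at -0.06.

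Of the 13 called members, 4 passed in the 19 alternative fits tried as well: MRPL9, MRPL20, MRPS26 and MRPS30. MRPL9 (ENSG00000143436, GRCh38 chromosome 1, 151759643 to 151763564, minus strand) is the counterpart of bacterial L9 in the large subunit. It stood at 34.5, 33.8 and 32.4 FPKM in control replicates 1, 2 and 3 and at 27.5, 26.01 and 26.1 FPKM with overexpression. The overexpression libraries were all lower and close to each other, and the group mean dropped from 33.6 ± 1.07 FPKM to 26.5 ± 0.864 FPKM (SD, 3 libraries each; log2 change -0.33, SE 0.0463, limma adjusted p = 0.0061). MRPL20 (ENSG00000242485, chromosome 1, 1401908 to 1407313, minus strand) is the counterpart of bacterial L20, a protein that joins the large subunit early in its assembly. Its level was 25.3, 27.5 and 24.5 FPKM in controls and 20.1, 21.4 and 20.3 FPKM with overexpression, a fall to 80.01% of control (log2 change -0.31, SE 0.0561, limma adjusted p = 0.0135). Every library with BCL6B lay below the lowest control.

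MRPS26 (ENSG00000125901, chromosome 20, 3045945 to 3048254, plus strand), a small subunit protein with no bacterial counterpart, was at 79.9, 83.7 and 81.5 FPKM in controls and 57.2, 66.7 and 64.0 FPKM with overexpression. It fell to 76.6% of control, and overexpression replicate 1 was the lowest library (log2 change -0.38, SE 0.0632, limma adjusted p = 0.01). MRPS30 (ENSG00000112996, chromosome 5, 44808925 to 44820428, plus strand), the large subunit protein with a small subunit name, was at 19.7, 19.7 and 19.2 FPKM in controls and 16.6, 16.0 and 15.4 FPKM with overexpression. Controls differed by less than 1 FPKM, and each overexpression library lay below them (log2 change -0.27, SE 0.0459, limma adjusted p = 0.0104).

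The 250 bases before the RefSeq start of these 4 genes and of MRPS34 are shown. The 4 were called in every fit, and MRPS34, also called, holds 3 matches to the motif below. The sequences are RefSeq's on GRCh38.p14, written 5′ to 3′ on the strand of the gene. The last base printed lies next to the start given by RefSeq. That start differs from the listed gene coordinates, and the end of each window shown lies inside the listed gene. For MRPS26 the window ends at 3046051, while the listed gene begins at 3045945. Capitals mark CCGGAAG, the core letters bound by ETS family factors such as GABPA, on either strand. The windows are chr1:151763497-151763746, minus strand for MRPL9, chr1:1407294-1407543, minus strand for MRPL20, chr20:3045802-3046051, plus strand for MRPS26, chr5:44808697-44808946, plus strand for MRPS30 and chr16:1773135-1773384, minus strand for MRPS34.
MRPL9: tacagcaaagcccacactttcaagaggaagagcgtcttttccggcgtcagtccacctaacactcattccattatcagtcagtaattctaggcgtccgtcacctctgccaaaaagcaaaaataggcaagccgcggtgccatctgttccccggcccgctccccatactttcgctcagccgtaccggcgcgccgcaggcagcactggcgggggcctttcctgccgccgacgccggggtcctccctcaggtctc
MRPL20: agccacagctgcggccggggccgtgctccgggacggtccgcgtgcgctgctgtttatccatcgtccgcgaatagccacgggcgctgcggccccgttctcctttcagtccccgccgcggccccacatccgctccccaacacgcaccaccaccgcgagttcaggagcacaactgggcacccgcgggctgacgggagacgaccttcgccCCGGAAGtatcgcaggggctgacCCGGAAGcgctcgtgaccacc
MRPS26: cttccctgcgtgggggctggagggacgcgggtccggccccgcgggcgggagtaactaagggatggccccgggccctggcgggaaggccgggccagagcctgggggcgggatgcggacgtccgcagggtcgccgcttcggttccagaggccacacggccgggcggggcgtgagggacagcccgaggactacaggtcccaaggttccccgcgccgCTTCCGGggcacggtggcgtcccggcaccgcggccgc
MRPS30: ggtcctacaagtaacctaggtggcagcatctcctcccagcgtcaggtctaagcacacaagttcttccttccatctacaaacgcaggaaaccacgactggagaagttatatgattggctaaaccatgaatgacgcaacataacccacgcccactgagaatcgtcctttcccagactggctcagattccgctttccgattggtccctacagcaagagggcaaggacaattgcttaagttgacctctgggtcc
MRPS34: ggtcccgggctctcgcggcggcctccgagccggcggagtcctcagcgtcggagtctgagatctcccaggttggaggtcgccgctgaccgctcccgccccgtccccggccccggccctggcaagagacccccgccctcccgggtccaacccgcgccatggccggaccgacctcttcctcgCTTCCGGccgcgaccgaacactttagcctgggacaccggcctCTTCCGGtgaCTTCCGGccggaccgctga
MRPL20 holds the letters at 44 and 21 bases before the RefSeq start, MRPS26 at 37 and MRPS34 at 71, 29 and 19 (positions of the first base). The MRPS26 match and the MRPS34 match at 19 lie inside the listed genes, and the MRPL20 match at 21 reaches into its listed gene. MRPL9 and MRPS30 have no match in these windows. MRPL38 and MRPS31, also called, hold it at 208 and 32 bases before the RefSeq start. The MRPL38 match also lies inside the listed gene.

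Windows of 300 bases (250 before and 50 after the RefSeq start) were found for 69 of the 78 members, and both strands were searched. CCGGAAG was present in 29 of the 69, or 42.0%, against 10.7% of all 27305 promoters and 21.4% of the 8514 promoters of tested protein-coding genes. AAGATGGC, letters bound by YY1, was present in 20 of the 69, against 3.03% and 5.98%. For 15 members the YY1 letters reached past the start, and for 5 they lay before it. These motifs can share bases, since the first ends in the letters with which the second begins, and 41 members held at least 1 of them and 8 held both. The NRF1 motif was present in 11.6% of members and 12.8% of tested protein-coding promoters, and the E-box CACGTG in 8.7% and 10.6%. TTCCTAGAA, the letters of the BCL6 motif, was in 0 of 69 member windows, 0.235% of tested protein-coding promoters and 0.403% of all promoters. Large and small subunit genes had similar shares of CCGGAAG (40.5% and 44.4%) and of AAGATGGC (28.6% and 29.6%). Among called members 6 of 12 held CCGGAAG and 4 of 12 AAGATGGC, beside 23 and 15 of 56 that were tested and not called. A match is a description of letters and not a bound site.

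The other called large subunit genes were MRPL24, MRPL16, MRPL44, MRPL50 and MRPL38. MRPL24, whose bacterial counterpart starts large subunit assembly and lines the exit of the peptide tunnel, was at 39.2, 39.8 and 35.9 FPKM in controls and 27.0, 32.9 and 28.7 FPKM with overexpression (77.1% of control, log2 change -0.37, SE 0.0794, limma adjusted p = 0.0229). Its groups did not overlap, and its call was lost without control replicate 1 or 2 or overexpression replicate 1 or 3 (largest adjusted p 0.0787). MRPL16, whose bacterial counterpart lies near the peptidyl transferase centre, was at 58.3, 61.3 and 57.5 FPKM in controls and 52.4, 49.7 and 51.9 FPKM with overexpression (log2 change -0.20, SE 0.0453, limma adjusted p = 0.0273). Its groups did not overlap either. Leaving out any 1 control, or overexpression replicate 2, ended the call and raised the adjusted p to as much as 0.0975. MRPL44, a protein with a ribonuclease III fold, fell to 88.4% of control, MRPL50 to 87.3% and MRPL38, a member of the central protuberance, to 75.5%. These 3 stood near the threshold (limma adjusted p = 0.0413, 0.0481 and 0.05) and lost their calls without any 1 library, except MRPL50 without overexpression replicate 1 (largest adjusted p 0.146).

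Among small subunit names, MRPS28, MRPS31, MRPS34 and MRPS35 were called besides MRPS26 and MRPS30. MRPS28, counterpart of bacterial S1, had the largest fall of any member. It was at 5.75, 5.35 and 5.90 FPKM in controls and 4.03, 3.08 and 3.95 FPKM with overexpression, or 65.1% of control (log2 change -0.51, SE 0.0938, limma adjusted p = 0.0136). Overexpression replicate 2 was the lowest, the groups did not overlap, and leaving out control replicate 1 or 3 ended the call (largest adjusted p 0.0536). MRPS28 rests on 100 to 192 reads per library. It shares 35.8% of its exon bases, on the same strand, with AC036214.3, listed at 0 in controls and at 0.0348 FPKM with overexpression.

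MRPS34, in which variants cause a form of Leigh syndrome, was at 80.8, 95.6 and 84.2 FPKM in controls and 65.1, 70.1 and 74.7 FPKM with overexpression (80.5% of control, log2 change -0.31, SE 0.0787, limma adjusted p = 0.0391). Its call was lost without any 1 library other than overexpression replicate 3 (largest adjusted p 0.101). MRPS31 and MRPS35, both without a bacterial counterpart, fell to 86.5% and 86.8% of control (limma adjusted p = 0.0315 and 0.0496). Each lost its call without any 1 library other than overexpression replicate 1 (largest adjusted p 0.107 and 0.163). Pseudogenes named after MRPS31 held reads equal to 6.01% of its own. The 3 overexpression libraries lay below the 3 controls for each of these genes.

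**Figure D3:**
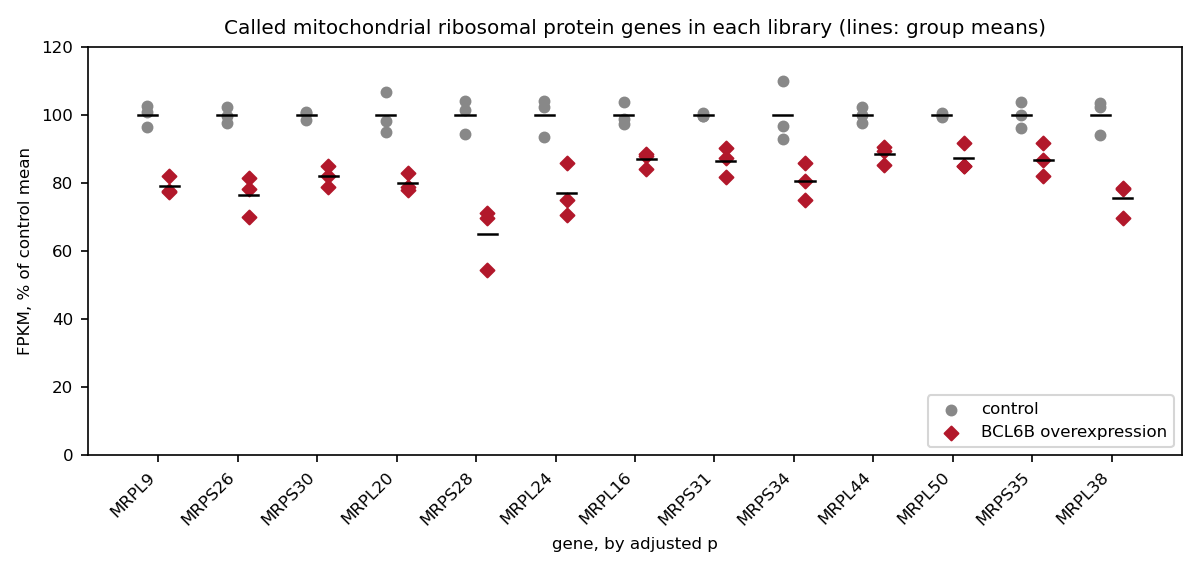
FPKM of the 13 called members in each library as % of the control mean, ordered by adjusted p, with grey points for the 3 controls, red diamonds for the 3 overexpression libraries and lines for group means. All overexpression points lie below all control points of the same gene, and they range from 54.4% for MRPS28 in replicate 2 to 91.8% for MRPL50 in replicate 1.

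Of the 64 tested members that were not called, 21 did not overlap downward, 2 did not overlap upward and 41 overlapped. The 6 non-overlapping ones with the largest changes were all in the large subunit. MRPL33 was at 11.9, 12.2 and 12.4 FPKM in controls and 9.39, 10.5 and 6.84 FPKM with overexpression, where replicate 3 was far below the other 2 (log2 change -0.43, SE 0.134, limma adjusted p = 0.0696). It passed without overexpression replicate 2 or 3, at adjusted p down to 0.0447, and shares 21.1% of its exon bases with BABAM2. MRPL12, the stalk protein that recruits translation factors, was at 35.8, 40.8 and 32.6 FPKM in controls and 28.1, 32.3 and 25.1 FPKM with overexpression (limma adjusted p = 0.0739, and 0.0133 to 0.182 over the alternatives). The spread among its control libraries was as large as the gap between the group means. MRPL12 shares 68.2% of its exon bases with AC139530.2, which is listed at 0 in both groups.

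MRPL46, MRPL19, MRPL4 and MRPL1 stood at 72.4%, 81.9%, 84.4% and 84.7% of control, with limma adjusted p of 0.0879, 0.0579, 0.0656 and 0.134. MRPL19 passed without overexpression replicate 1, at 0.039, and MRPL4 without overexpression replicate 3, at 0.0152. MRPL18, the most abundant member, was at 125, 133 and 129 FPKM in controls and 116, 114 and 118 FPKM with overexpression, just short of a call at a limma adjusted p of 0.0511. The other stalk genes, MRPL10 and MRPL11, stood at 98.3% and 95.8% of control with overlapping groups. MRPL18, MRPL10 and MRPL11 are given for their level or role, the last 2 chosen with their values known.

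The 2 members without overlap in the upward direction were MRPS25, at 18.1, 18.4 and 16.9 FPKM in controls and 19.8, 19.5 and 19.3 FPKM with overexpression, and MRPL45, which lies by the tunnel exit and holds the ribosome to the inner membrane. MRPL45 was at 34.1, 34.0 and 36.2 FPKM in controls and 38.2, 40.5 and 36.5 FPKM with overexpression, and neither passed (limma adjusted p = 0.112 and 0.12). MRPS25 shares 22.2% of its exon bases with NR2C2 on the opposite strand, which rose from 8.75 to 10.8 FPKM (limma adjusted p = 0.0345), and the use of strand in counting is not stated. Pseudogenes named after MRPL45 held reads equal to 14.2% of its own. MRPS18A, MRPS18B and MRPS18C, paralogs related to bacterial S18, stood at 94.6%, 101% and 99.1% of control with overlapping groups. MRPS36, of the dehydrogenase complex, was at 20.3 ± 0.698 FPKM in controls against 21.6 ± 1.85 FPKM with overexpression (limma adjusted p = 0.437). MRPL53 was at 1.36 and 1.58 FPKM (limma adjusted p = 0.526) and shares 45.2% of its exon bases with CCDC142.

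By origin, 5 of 44 tested members with a bacterial counterpart fell (11.4%), with a median change of -0.10, and 8 of 28 members specific to mitochondria fell (28.6%), with a median of -0.13. At an unadjusted p under 0.05, 0 of the first and 2 of the second were higher, and voom called 12 and 7 lower and 0 higher in either. In the small subunit, assigned by structure, the counts were 1 of 15 and 4 of 9, and in the large subunit 4 of 29 and 4 of 19. The background over all tested genes is 10.1% called lower and 8.18% called higher. These differences were not tested. By position, 3 of the 13 called members lie on chromosome 1, which holds 8 members, and the other 10 on 10 different chromosomes.

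Proteins of the mitochondrial ribosome with other names were taken from a separate list of 6, which also held OXA1L, a membrane insertase and not a ribosomal protein. Of the 6, 1 fell (16.7%) and 0 rose, beside 10.1% and 8.18% of all tested genes. None was higher at an unadjusted p under 0.05 (0 of 6), and voom called 0 higher. The median log2 change of the list was -0.003, with 3 of 6 below 0. PTCD3, a pentatricopeptide repeat protein of the small subunit, fell from 19.8 ± 0.212 to 15.4 ± 0.479 FPKM (log2 change -0.35, limma adjusted p = 0.00444). It passed in all 19 alternatives. DAP3, the GTP-binding small subunit protein, was at 94.0% of control without overlap (limma adjusted p = 0.202), and CHCHD1, AURKAIP1, GADD45GIP1 and OXA1L stood between 99.1% and 106% of control. The ribosomal RNAs of the particle, MT-RNR1 and MT-RNR2, were at 1397 and 5671 FPKM in controls and 1610 and 6052 FPKM with overexpression (limma adjusted p = 0.101 and 0.533). MT-RNR1 was higher in every overexpression library than in any control, while the groups overlapped for MT-RNR2. MT-RNR1 passed with voom and with the GC and length splines (limma adjusted p 0.0119 to 0.851 over the alternatives). The libraries were poly(A) selected.

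Factors that build or serve the ribosome were read from lists. The share called lower was 20.7% for assembly factors, 23.5% for translation factors, 35% for aminoacyl-tRNA genes and 41.7% for mitochondrial DNA genes. For all tested genes it was 10.1%, with 8.18% called higher, and the differences were not tested. Of 29 assembly and ribosomal RNA modification factors 6 fell and 1 rose, with a median log2 change of -0.15. MTERF3, which acts on mitochondrial ribosome assembly and transcription, fell to 83.8% of control, ERAL1, a chaperone of the small subunit RNA, to 88.6%, the pseudouridine synthase gene TRUB2 to 82.8% and FASTKD2 to 79.0% (limma adjusted p = 0.0201, 0.0263, 0.0282 and 0.032). YBEY, an endoribonuclease, rose 1.39-fold from 2.97 to 4.13 FPKM (limma adjusted p = 0.0441). None of the 5 kept its call through every omission of a library: MTERF3 lost it without control replicate 1 or 3 or overexpression replicate 2, ERAL1 without any 1 control or overexpression replicate 2, FASTKD2 and YBEY without any 1 library except overexpression replicate 1, and TRUB2 without any 1 library (largest adjusted p 0.118).

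Of 17 translation factors 4 fell and 0 rose (0 upward at an unadjusted p under 0.05 and 0 by voom), with a median of -0.08. These were the elongation and recycling factors GFM1 and GFM2, at 76.5% and 84.4% of control, the release factor MTRF1 at 78.8% and the RNA-binding protein LRPPRC at 85.5%. All 4 lost their calls without control replicate 1 or 3 or overexpression replicate 2 or 3, GFM1 also without overexpression replicate 1 and the other 3 also without control replicate 2 (largest adjusted p 0.131). Of 20 genes for aminoacyl-tRNA synthesis in mitochondria 7 fell and 0 rose, and 19 had a change below 0, with a median of -0.19 (0 upward at an unadjusted p under 0.05 and 0 by voom). QRSL1, a subunit of the glutaminyl-tRNA amidotransferase, fell from 8.63 ± 0.182 to 6.44 ± 0.199 FPKM, NARS2 to 72.7%, EARS2 to 65.6% and HARS2 to 82.0% of control (limma adjusted p = 0.00515, 0.00761, 0.0104 and 0.014). The first 3 passed in all 19 alternatives, and HARS2 lost its call without control replicate 1, at 0.0615.

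Of 12 genes for transcription and upkeep of mitochondrial DNA 5 fell and 0 rose (0 upward at an unadjusted p under 0.05 and 0 by voom), with a median of -0.20. POLG2 and POLG, the subunits of the mitochondrial DNA polymerase, fell to 74.7% and 78.5%, the transcription factor TFB2M to 74.5% and the topoisomerase TOP1MT to 83.3% of control (limma adjusted p = 0.00618, 0.0164, 0.0308 and 0.0334). POLG2 passed in all 19 alternatives. POLG lost its call without control replicate 1 or 3 or overexpression replicate 2, TFB2M without any 1 library except overexpression replicate 1 and TOP1MT without any 1 except overexpression replicate 3 (largest adjusted p 0.11). Of 8 tested regulators of mitochondrial biogenesis, among them NRF1, GABPA, YY1 and MYC, 0 rose and 0 fell in limma, 1 had an unadjusted p under 0.05 and voom called 1 lower. MYC was at 76.5 ± 1.17 FPKM in controls against 71.7 ± 5.07 FPKM with overexpression, and PPARGC1A failed the filter, with reads in 1 control library only.

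The groups most like the members were the cytosolic ribosomal proteins and the respiratory chain. Background shares were 8.18% of all tested genes called higher, 10.1% called lower and 53.6% with a change below 0. Of 76 tested cytosolic ribosomal protein genes 1 rose and 1 fell, with a median log2 change of 0.17 and 9.21% below 0. At an unadjusted p under 0.05, 13 of them were higher and 2 lower, and voom called 25 higher and 1 lower. Of 80 tested nuclear genes of the respiratory chain 1 rose and 4 fell, with a median of -0.08 and 71.2% below 0 (2 higher and 11 lower at an unadjusted p under 0.05, and 1 higher and 10 lower by voom). Of the 13 proteins encoded by mitochondrial DNA, which the mitochondrial ribosome makes, 4 rose and 0 fell, with a median of 0.26 (5 higher and 0 lower at an unadjusted p under 0.05, and 8 higher and 0 lower by voom). MT-ND1 was at 1313 ± 50.3 FPKM in controls against 2004 ± 118 FPKM with overexpression (limma adjusted p = 0.00355). The other called genes were MT-ND3, which rose 1.87-fold, MT-ND2, at 1.36-fold, and MT-CYB, at 1.24-fold (limma adjusted p = 0.01, 0.01 and 0.016). MT-ND3 passed in all 19 alternatives. With no filter on low FPKM the adjusted p was 0.0742 for MT-ND1, 0.136 for MT-ND2 and 0.103 for MT-CYB. The call of MT-CYB was also lost with quantile normalization, at 0.272, and without control replicate 1 or 3. The difference between the members and these groups was not tested. Protein levels and translation were not measured.

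**Figure D4:**
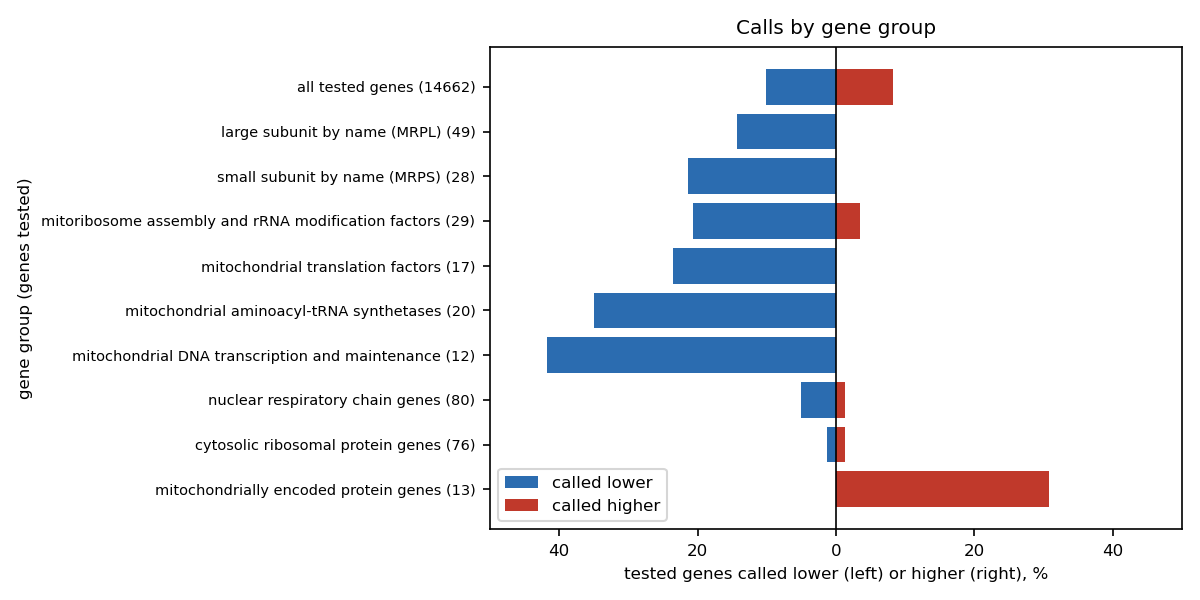
Share of tested genes, in %, called lower (left) or higher (right) with BCL6B overexpression at an adjusted p under 0.05, for all tested genes, both subunits and related groups, with the number of genes tested in brackets. Calls are on the lower side only for the subunits, the translation factors, the synthetases and the mitochondrial DNA genes, and on the higher side only for the mitochondrially encoded proteins.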

How the data were processed

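Messenger RNA of 3 control and 3 BCL6B-overexpressing U937 libraries was selected with oligo(dT) and made into dUTP-marked libraries, per the labels' protocols. The authors deposited FPKM values per gene with a gene length, per the file headers, and the submitters' processing notes list cutadapt 1.9 and GRCh38. For the aligner, the counter, the use of strand and multiply matching reads: not given in the sources used here. FPKM times length gave whole reads for 100% of values above 0 within 0.01, so reads per gene could be recovered.

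The filter kept genes at 0.5 FPKM or more in 3 of 6 libraries, and limma 3.58.1 tested log2(FPKM + 1) (R 4.3.3, mean-variance trend, Benjamini-Hochberg over 14662 genes, threshold 0.05, two-sided). This scale understates changes of low genes. Intervals for counting error are not given, since PCR copies are not independent molecules. The members, lists and rule for named genes were chosen with earlier results of these data known. The rule names every called member, the 3 highest and 3 lowest, members failing the filter, up to 6 uncalled members without overlap, MRPS30, MRPS18A and MRPS36, and up to 4 called genes per list and direction. Other members are named for role or position with values known. Bacterial counterparts were assigned from general knowledge. One marker of another cell type is not reported here.

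GENCODE 29 gave the same coordinates for all 78 members and was used for GC content and exon overlap. At least 20% of exon bases were shared with another gene by 12 members, 7 on the same strand, and BLAST+ 2.17.0 found no copy of at least 98% identity over 200 bases outside overlapping genes. Deviations from the group mean correlated weakly between same-numbered libraries (0.0511, 0.11 and -0.00189) and ran from -0.0909 to 0.0386 between differently numbered ones. These values do not settle whether the libraries are paired. The labels name no pairs, so the main fit used none, and a replicate block was tried as an alternative. The procedure was also run on simulated reads, drawn independently for each gene and library at the same dispersion for every gene. Such reads hold no shift shared within a library beyond depth, unlike real libraries, and no result rests on that run. Alternatives were the pseudocount, filter, scaling, variance model, library weights, a replicate block, voom, spline corrections and leaving out each library.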

Additional observations from a re-analysis of the deposited data

How the results depend on the processing

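Across 19 alternative fits the median change of the members stayed below 0, and the members called lower numbered 4 to 23. Without the filter on low values 1588 genes and 6 members were called, 3 in each subunit. Members called lower were 8 with median ratio scaling (4 large), 8 with quantile normalization (4 large, small subunit median -0.0237), 7 without the mean-variance trend (4 large, 3 small) and 20 with library weights (13 large). After TPM rescaling 11 large subunit genes were called and the small subunit median was -0.10. Voom on recovered reads called 12 large subunit genes. With GC and length splines 23 members were lower (16 large) and 2 higher, 1 in each subunit. The cause was not tested. With the replicate number as a block 4 large subunit genes and 9 members were called, and the numbers are not shown to pair the libraries. Leaving out 1 library gave 1222 to 2272 genes, 4 to 11 members lower, 2 to 6 large and 2 to 5 small subunit genes, and a large subunit median of -0.136 to -0.0803. MT-RNR2 changed sign with quantile normalization, to -0.0466. Among values of the genes named by the rule, 175 alternative values fell short of a call made and 27 passed where the main fit did not.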
